A study of Mus musculus with 30 samples.

Results

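Oxidative phosphorylation was followed through 48 genes that encode subunits of the respiratory chain and of ATP synthase, of 48820 gene identifiers in the deposited count table. The genes were matched by symbol: the 13 protein-coding genes of mitochondrial DNA, whose symbols begin with mt-, and 35 genes of the nucleus. The mitochondrial genes encode 7 subunits of complex I, 1 of complex III, 3 of complex IV and 2 of ATP synthase, which is complex V. The nuclear genes encode 19 subunits of complex I (Ndufa4 is counted there by its name), 4 of complex II, 5 of complex III and 7 of complex IV. All 48 symbols were found once in the table, and all 48 passed the filter on low counts in both tissues.

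The respiratory chain sits in the inner mitochondrial membrane. Complex I takes electrons from NADH and complex II takes them from succinate, complex III passes them to cytochrome c, complex IV hands them to oxygen, and ATP synthase uses the proton gradient that results to make ATP. Complexes I, III and IV and ATP synthase are built from subunits of both genomes, whereas complex II is encoded by the nucleus alone. Mitochondrial DNA is transcribed as long molecules from each strand that are cut into separate messengers and tailed inside the organelle, and nuclear subunits are transcribed gene by gene and imported after translation. Neurons use oxidative phosphorylation for most of their ATP, and immune cells are known to shift between it and glycolysis when they meet bacterial products.

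The data are RNA-seq gene counts of 2 brain regions, hippocampus and frontal cortex, from a mouse model of Gulf War Illness. The mice were C57BL/6J males of 8 to 12 weeks. All of them, controls included, drank corticosterone (CORT) at 200 mg/L, with ethanol at 0.6%, for 7 days, received the organophosphate diisopropyl fluorophosphate (DFP, 4 mg/kg) on day 8, and had further courses of CORT over 5 weeks. On the last day the mice received saline or lipopolysaccharide (LPS, a bacterial cell wall product that sets off inflammation, 0.5 mg/kg under the skin). Each tissue has 3 libraries collected 6 h after saline and 4 at each of 6, 12 and 24 h after LPS, which gave 30 libraries from 16 mice, 14 of which gave both tissues. There is no group without CORT and DFP, and saline was collected at 6 h alone, so a difference of the 12 h or 24 h groups from saline cannot be told apart from the time of collection. A further hippocampal saline library was left out by the submitters for poor sequencing quality. In pieces of whole tissue, fewer cells of a type and less RNA per cell cannot be told apart.

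Libraries held between 16826882 and 33034295 counts. In saline all 6 hippocampal marker genes were higher in hippocampus, and all 5 cortical markers were higher in frontal cortex, as the tissue labels give. All 8 striatal markers were also higher in frontal cortex, although the labels do not name striatum. Their summed CPM (counts scaled to the library total) was 359, 875 and 167 in cortical saline libraries A223, A224 and A226. In hippocampal saline libraries it was 78.2 to 95.7. The cortical saline libraries were thus uneven in striatal markers, and the part of this in the members was not tested. A further property of the libraries was measured from genes outside the members. For each library the deviation of each nuclear gene outside the members from its median in that tissue was regressed on log2 transcript length, which gives a length slope: a negative slope means that long transcripts are under-represented. Hippocampal slopes lay between -0.049 and 0.065, and 4 frontal cortex libraries lay below -0.05: 2 at LPS 6 h (A240 at -0.082 and A242 at -0.168) and 2 at LPS 12 h (A260 at -0.062 and A261 at -0.093). For frontal cortex the shares, the ratio, the main members and the order along the messengers are also given without those 4 libraries.

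Some members have near-identical copies in the nuclear genome, and the way the counts fall between a gene and its copy sets what a level means. On chromosome 1, 7 pseudogenes in a row are at least 99% identical to 7 mitochondrial members over their aligned bases, and they took 2.85% to 5.08% of all counts of a library. The stretch of mt-Co2 (cytochrome c oxidase subunit 2) at chrM:7457-7576, plus strand of GRCm38, is shown with the same stretch of its copies Gm28661 at chr1:24615002-24615121 and Gm13341 at chr2:22587411-22587530, both read on the minus strand. The start of mt-Nd3 at chrM:9459-9558 is shown with Gm28438 at chr1:24613020-24613119, minus strand. Capitals mark the bases that differ between a gene and a copy shown with it.
mt-Co2: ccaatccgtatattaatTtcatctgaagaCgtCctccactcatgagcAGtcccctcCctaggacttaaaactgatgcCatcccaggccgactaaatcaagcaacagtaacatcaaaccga
Gm28661: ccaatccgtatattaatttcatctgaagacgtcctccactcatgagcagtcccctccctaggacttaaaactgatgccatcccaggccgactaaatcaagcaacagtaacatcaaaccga
Gm13341: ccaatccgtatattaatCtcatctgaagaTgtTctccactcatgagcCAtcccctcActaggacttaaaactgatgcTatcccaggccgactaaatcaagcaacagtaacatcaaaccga
mt-Nd3: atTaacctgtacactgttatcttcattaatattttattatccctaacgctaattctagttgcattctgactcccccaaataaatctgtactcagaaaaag
Gm28438: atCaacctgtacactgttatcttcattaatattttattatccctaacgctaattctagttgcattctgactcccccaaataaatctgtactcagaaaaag

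The Gm28661 stretch has 0 differences from mt-Co2, the Gm28438 stretch has 1 from mt-Nd3 and the Gm13341 stretch has 7 from mt-Co2. Of the counts given to mt-Co2 and Gm28661 together, Gm28661 took between 50.075% and 50.127% in the 30 libraries. The median share of the copy was 50.2% for mt-Co3 (Gm28437), 49.96% for mt-Nd3 (Gm28438), 50.7% for mt-Nd4l (Gm10222), 59.9% for mt-Atp6 (Gm10925), 34.6% for mt-Nd4 (Gm28439, which covers part of the gene) and 24.1% for mt-Co1 (Gm29216, likewise partial). The diverged copy Gm13341 had a share of 3.03% beside mt-Co2. Levels of those 7 members are therefore uncertain by up to the counts of the copy, and how shared reads were assigned is not given in the sources used here. Changes of the members were also fitted after the counts of each chromosome 1 copy were added to its gene. Among nuclear members, copies took over 5% of the counts beside 2 genes, Cox7c (13.2%) and Ndufs3 (8.78%).

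In saline all 13 mitochondrial members were above all 35 nuclear members per kilobase, in both tissues. Per kilobase of transcript, the 13 mitochondrial members ran from 1813 ± 332 CPM (counts scaled to the total of the library; mean ± SD, n = 3) for mt-Atp8, a small ATP synthase subunit, to 15877 ± 1099.6 for mt-Co1, the catalytic subunit of cytochrome c oxidase, in frontal cortex. The nuclear members ran from 28.2 to 569 CPM per kilobase there, led by the cytochrome c oxidase subunits Cox8a (569 ± 24.7), Cox4i1 (501 ± 54.1) and Cox6a1 (430.2 ± 45.5). Hippocampus gave the same 4 leaders per kilobase, in the order mt-Co1 (12841 ± 753), mt-Co2 (10066 ± 995), mt-Co3 (9115 ± 923) and mt-Atp6 (8469 ± 993). In each tissue mt-Co3 and mt-Atp6 differed by less than the sum of their SDs, as did the neighbours mt-Nd1 and mt-Cytb, and mt-Nd3 and mt-Nd4l. The 3 catalytic core subunits of complex IV were thus the most abundant members per length, and mt-Nd5, mt-Nd6 and mt-Atp8 were the lowest of the mitochondrial ones, before any count of a copy is added. The place of mt-Atp8 is not a messenger level. The gene has 204 bases, 43 of them shared with mt-Atp6, and both are taken below as 1 messenger. Yet mt-Atp6 was at 9909 CPM per kilobase in frontal cortex. How reads over both genes were counted is not given in the sources used here.

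The tissues differed in 2 members in saline. mt-Nd1, the complex I subunit next to the ubiquinone site, was at 4489, 4723 and 5177 CPM in the 3 hippocampal libraries and at 6729.7, 6171 and 5838 in the 3 frontal cortex libraries. All hippocampal values lay below all cortical ones, with a log2 difference of -0.34 ± 0.11 SE (edgeR quasi-likelihood test, adjusted p = 0.0171). The CPM were scaled within each tissue, while the tested difference comes from a fit that scaled both tissues together. mt-Co2 was also lower in hippocampus, with a log2 difference of -0.28 ± 0.11 SE (edgeR, adjusted p = 0.0376). No nuclear member of 35 was called (5 at an unadjusted p under 0.05), while 37.1% of the 17650 tested genes were called between the tissues, so both shares lie below the background. DESeq2 called 7 members and limma with quality weights 19 in this comparison, with 2 by edgeR. Mice A224 and A226 gave both tissues, and with the mouse as a fixed effect edgeR called 0 members (paired fit). Leaving out 1 library gave 0 to 9.

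As a share of all counts, the mitochondrial members together were at 7.74 ± 0.542 (SD, n = 3) percent in frontal cortex after saline, 7.63 ± 1.19 (SD, n = 4) at 6 h, 6.16 ± 0.696 (SD, n = 4) at 12 h and 6.18 ± 0.518 (SD, n = 4) at 24 h after LPS. The single libraries were at 8.34, 7.60 and 7.29 percent in saline and at 9.36, 6.87, 6.84 and 7.45, at 5.37, 6.79, 5.77 and 6.70 and at 6.49, 5.42, 6.26 and 6.54 percent at 6, 12 and 24 h. All libraries of 12 h and 24 h lay below all saline libraries, and the 6 h group spread to both sides of saline, with A240 the highest library of the tissue. The nuclear members together were at 0.453 ± 0.030 (SD, n = 3) percent in saline and 0.502 ± 0.063 (SD, n = 4), 0.495 ± 0.039 (SD, n = 4) and 0.467 ± 0.027 (SD, n = 4) percent at the 3 times, which overlap saline at each time. In hippocampus the mitochondrial members were at 6.54 ± 0.440 (SD, n = 3) percent in saline and at 6.61 ± 0.291 (SD, n = 4), 6.87 ± 0.135 (SD, n = 4) and 6.89 ± 0.377 (SD, n = 4) percent at 6, 12 and 24 h, with overlap at each time. Without the 4 libraries of low length slope the mitochondrial share in frontal cortex was 6.87 and 7.45 percent in the 2 libraries left at 6 h, which overlap saline, and 5.37 and 6.79 in the 2 left at 12 h, which do not. The nuclear share was then 0.445 to 0.462 percent at 6 h and 0.448 to 0.479 at 12 h, both within the saline range.

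**Figure D1:**
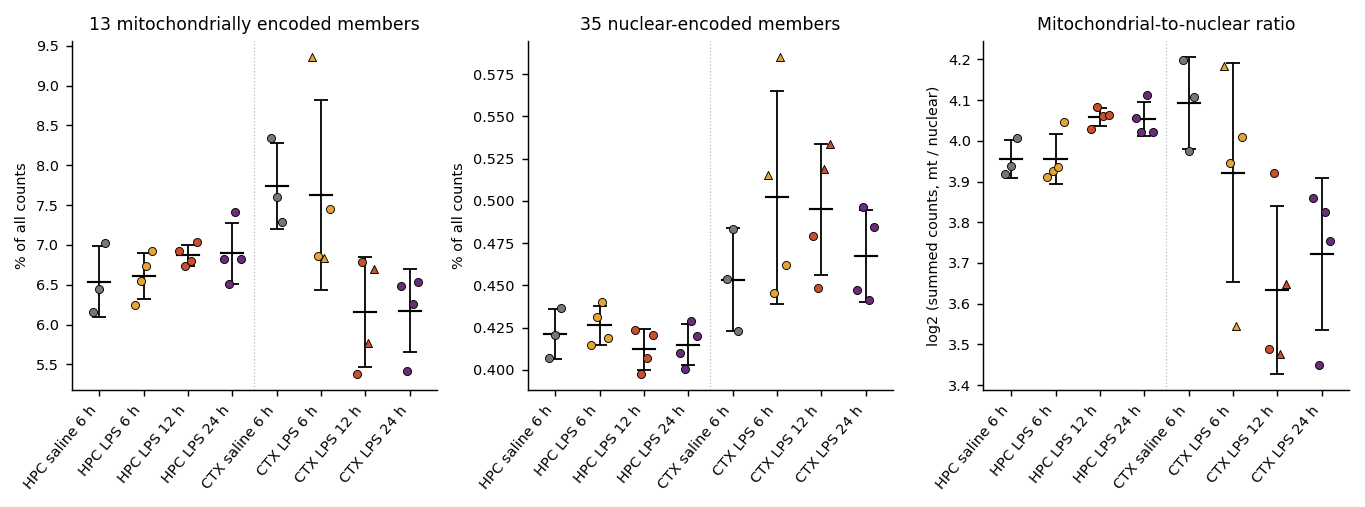
Share of counts of the 13 mitochondrial members (left, percent), of the 35 nuclear members (middle, percent) and log2 ratio of both (right) in each of the 30 libraries, by tissue and group, with bars for the mean and SD of a group. Triangles are the 4 frontal cortex libraries with a length slope below -0.05, and in the right panel all frontal cortex libraries of 12 h and 24 h lie below the 3 saline libraries.

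The ratio of summed mitochondrial to summed nuclear member counts was lower than in saline at 12 h and 24 h in frontal cortex and higher in hippocampus. In frontal cortex the log2 ratio was 4.20, 3.97 and 4.11 in saline, 3.49, 3.92, 3.48 and 3.65 at 12 h and 3.86, 3.45, 3.83 and 3.75 at 24 h. Every library of 12 h and 24 h was below every saline library, and the group means differed from saline by -0.46 (a ratio 0.727 times that of saline) and -0.37 (0.773 times). At 6 h the libraries were at 4.18, 3.95, 3.55 and 4.01, which overlap saline, with a difference of -0.17. Without the 4 libraries of low length slope the differences at 6 h and 12 h were -0.12 and -0.39. In hippocampus the saline libraries were at 3.92, 3.94 and 4.01, those of 12 h at 4.03, 4.08, 4.06 and 4.06 and those of 24 h at 4.06, 4.02, 4.11 and 4.02. All 8 later hippocampal libraries were above all 3 saline ones, by 0.10 in the mean at both times. That depends on how the ratio is formed: with all nuclear genes in place of the nuclear members, hippocampal libraries of 12 h (-3.78 to -3.71) and 24 h (-3.83 to -3.63) overlapped saline (-3.92 to -3.71). With median log2 CPM in place of summed counts, 24 h overlapped saline in both tissues. The 6 h hippocampal libraries, at 3.91, 3.93, 3.94 and 4.05, overlapped saline, with means that differed by 0.00. Since the members were chosen with results known, no p is given for these sums, and their difference between tissues was not tested.

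In frontal cortex, 3 of 13 mitochondrial members fell at 12 h after LPS and 2 of 13 at 24 h, by edgeR's quasi-likelihood test at an adjusted p below 0.05, and no member rose. The comparisons at 6, 12 and 24 h share their saline libraries. At 12 h all 13 had a negative log2 fold change (mt-Nd3, at -0.01, was positive in 4 of 27 alternatives), with a median of -0.43 (-0.67 to -0.01) beside a median of 0.01 over all genes tested. At 24 h all 13 were negative again, with a median of -0.40 (-0.56 to -0.12). Of the 17111 genes tested, 7.13% were called at 12 h and 6.11% at 24 h, against 23.1% and 15.4% of the mitochondrial members. A further 7 and 8 members had an unadjusted p under 0.05 without passing the adjustment. The libraries of LPS and saline did not overlap for 7 members at 12 h and 10 at 24 h, all lower after LPS, where 8.22% and 8.16% of tested genes were lower without overlap.

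mt-Nd4 (chrM:10167-11544, plus strand, GRCm38) encodes a membrane subunit of complex I that takes part in proton pumping. Its levels in frontal cortex were 7196, 5979 and 6426 CPM in saline, 6737, 5325, 4386 and 6003 at 6 h, 3903, 5461, 3851 and 4692 at 12 h and 5140.4, 3904, 5048 and 4901 at 24 h. Every value of 12 h and 24 h was below every saline value, while 6 h overlapped saline. It fell at 12 h, with a log2 fold change of -0.55 ± 0.14 SE, or 0.685 times saline (edgeR, adjusted p = 0.0257), and had -0.46 ± 0.14 SE at 24 h (adjusted p = 0.0712), which was not called.

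mt-Co1 (chrM:5328-6872, plus strand) is the member with the highest level. In frontal cortex it was at 26483, 23709.6 and 23396 CPM in saline and at 29643, 20120.2, 18793 and 23132 at 6 h, with A240 above and the other 3 libraries below the saline range. At 12 h it was at 15831, 20000.5, 14978 and 17705 and at 24 h at 18945, 14546, 17778 and 18097, all below saline. The log2 fold changes were -0.52 ± 0.13 SE at 12 h (edgeR, adjusted p = 0.0251) and -0.50 ± 0.13 SE at 24 h (adjusted p = 0.0343), both called.

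mt-Cytb (chrM:14145-15288, plus strand) encodes cytochrome b, the single mitochondrial subunit of complex III. In frontal cortex it was at 7984, 6998 and 7042 CPM in saline, 4421, 5874, 4813 and 5574 at 12 h and 5679.6, 4569.9, 5547 and 5739.7 at 24 h. Again no library of 12 h or 24 h reached the saline range. mt-Cytb fell by 0.51 ± 0.13 SE on the log2 scale at 12 h (edgeR, adjusted p = 0.0178) and by 0.45 ± 0.13 SE at 24 h (adjusted p = 0.0413). mt-Cytb has no chromosome 1 copy among those found, and so no counts of such a copy enter its level.

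mt-Nd6, the single member read from the other strand of the circle (chrM:13552-14070, minus strand), was at 1223, 1012 and 992 CPM in saline, 659, 859.7, 815 and 859 at 12 h and 859, 667, 862 and 866 at 24 h in frontal cortex. All later values lay below saline, with log2 fold changes of -0.43 ± 0.13 SE, adjusted p = 0.0616 and -0.40 ± 0.13 SE, adjusted p = 0.0950 that edgeR did not call. mt-Nd3, a small complex I subunit, stood at the other end, with 1222, 1204 and 933 CPM in saline and 850.2, 1081, 1122 and 1401 at 12 h. Its groups overlapped, and its log2 fold change at 12 h was -0.01 ± 0.24 SE, adjusted p = 0.992. Both ends of the range at 12 h were complex I subunits, mt-Nd4l at the lower and mt-Nd3 at the upper.

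**Figure D2:**
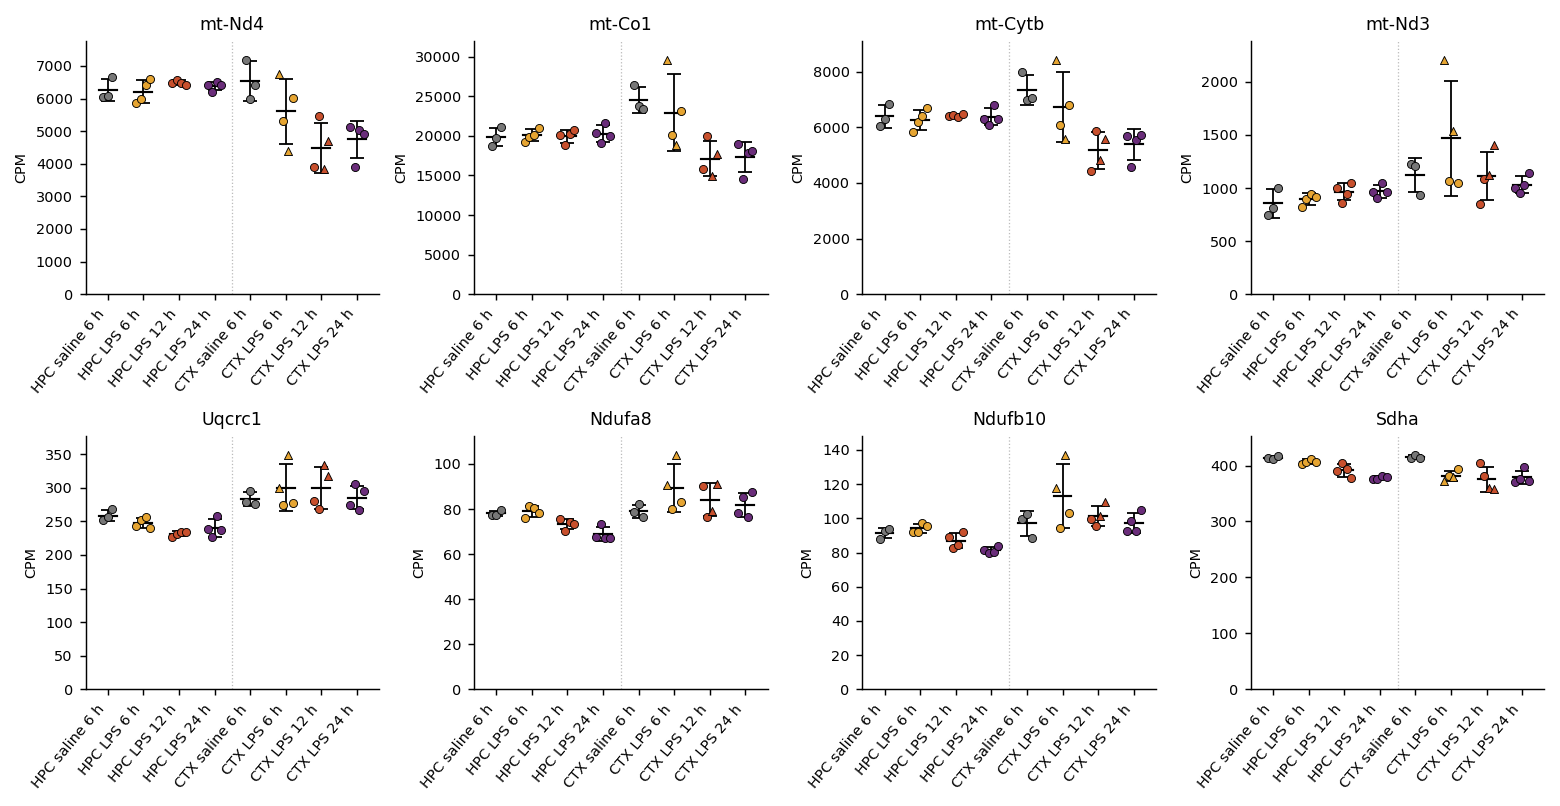
CPM in each of the 30 libraries (vertical axis, per panel) for 4 mitochondrial members (mt-Nd4, mt-Co1, mt-Cytb, mt-Nd3) and 4 nuclear members (Uqcrc1, Ndufa8, Ndufb10, Sdha), by tissue and group. In frontal cortex mt-Nd4, mt-Co1 and mt-Cytb lie below all saline libraries at 12 h and 24 h, and in hippocampus Ndufa8 and Ndufb10 lie below all saline libraries at 24 h.

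The frontal cortex calls depend on single libraries. Without saline A223 edgeR called 0 mitochondrial members at 12 h, and without saline A226 or LPS A258 or A260 it called 1. At 24 h it called 0 without any one of the 3 saline libraries or without LPS A275, A276 or A278, and without the 6 h library A240 it called 6. In 27 settings mt-Cytb stayed called at 12 h in 24, mt-Nd4 and mt-Co1 in 19 each. At 24 h mt-Co1 stayed called in 19 and mt-Cytb in 18. No setting turned the direction of mt-Nd4, mt-Co1 or mt-Cytb at 12 h or 24 h. DESeq2 called 8 mitochondrial members at 12 h and 5 at 24 h, and limma with quality weights 10 and 7.

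Within the mitochondrial genome the frontal cortex fold changes ran with the place of a gene in its messenger. The distance from the middle of each gene to the 3′ end of its messenger was taken with mt-Nd4l and mt-Nd4, and mt-Atp8 and mt-Atp6, as shared messengers. The 3′ end was set at the annotated end of the last gene of a messenger. Any messenger bases beyond that, as may exist for mt-Nd5 or mt-Nd6, are not counted, so the distances are those of the annotation. mt-Nd4l, with 1519 bases behind it, had a log2 fold change of -0.67 ± 0.21 SE at 12 h, and mt-Nd5, with 912, had -0.51 ± 0.17 SE. mt-Nd3, with 174, had -0.01 ± 0.24 SE, and the neighbours mt-Atp6 (340.0 bases) and mt-Co3 (392 bases) had -0.18 ± 0.14 SE and -0.16 ± 0.15 SE. The farther a gene lay from the 3′ end, the lower its fold change: Spearman's rho over the 13 genes was -0.841 at 12 h, -0.764 at 24 h and -0.676 at 6 h in frontal cortex. In hippocampus rho was -0.429, -0.297 and 0.104 at 6, 12 and 24 h. These are correlations across genes that share messengers, libraries and saline controls, and no p is given. By these annotated distances mt-Nd6 (-0.43) and mt-Co2 (342 bases, -0.41) departed from the order, with lower values than genes at like distances. Over gene length alone rho was -0.313 at 12 h. Without the 4 libraries of low length slope rho with distance was -0.522, -0.720 and -0.764 in frontal cortex at 6, 12 and 24 h, and mt-Nd3 had -0.21 ± 0.12 SE at 12 h.

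**Figure D3:**
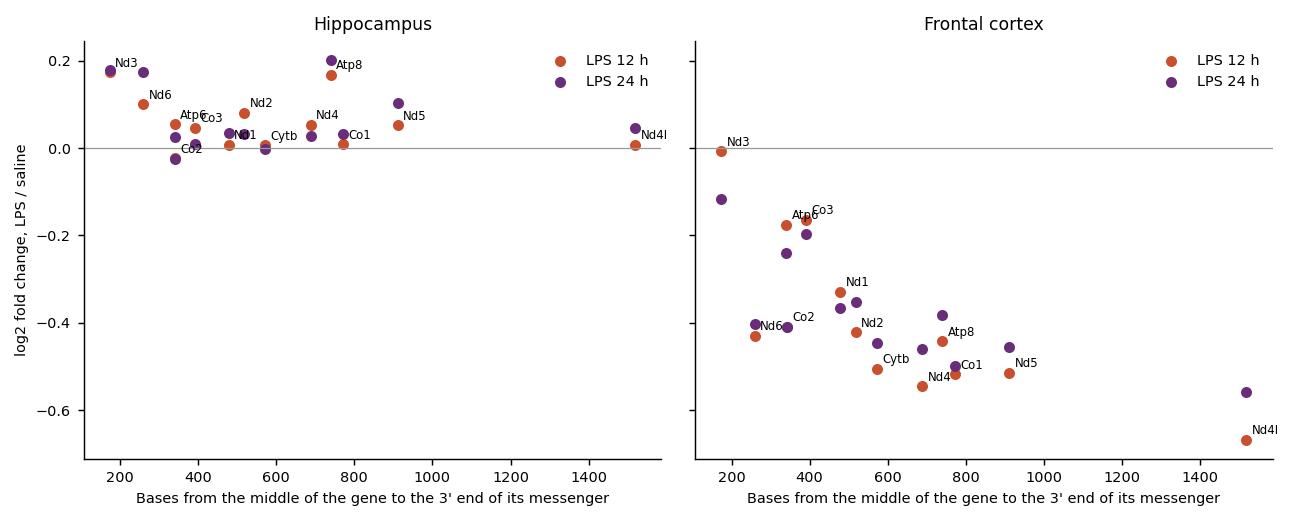
Log2 fold change against saline (vertical axis) of each of the 13 mitochondrial members at 12 h and 24 h after LPS, with hippocampus on the left and frontal cortex on the right. The horizontal axis is the distance in bases from the middle of the gene to the annotated 3′ end of its messenger. Frontal cortex values run from near 0 for mt-Nd3 to -0.67 for mt-Nd4l at 12 h, and hippocampal values at both times lie between -0.02 and 0.20.

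The 4 frontal cortex libraries with a low length slope stood apart in the same measures. Their log2 ratio of mt-Nd4 to mt-Nd3 counts was 1.51 to 1.78, against 2.03 to 2.78 in the other 11 cortical libraries. Their nuclear members made up 0.515% to 0.585% of counts, against 0.423% to 0.496%, and messengers of cytosolic ribosomal proteins, which are short, summed to 17126 to 20046 CPM against 12989.5 to 16389. The groups do not overlap in any of the 3 measures, and the 4 libraries belong to LPS groups alone. The part of the length slope in the changes of the members was not tested beyond the fits that follow.

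**Figure D4:**
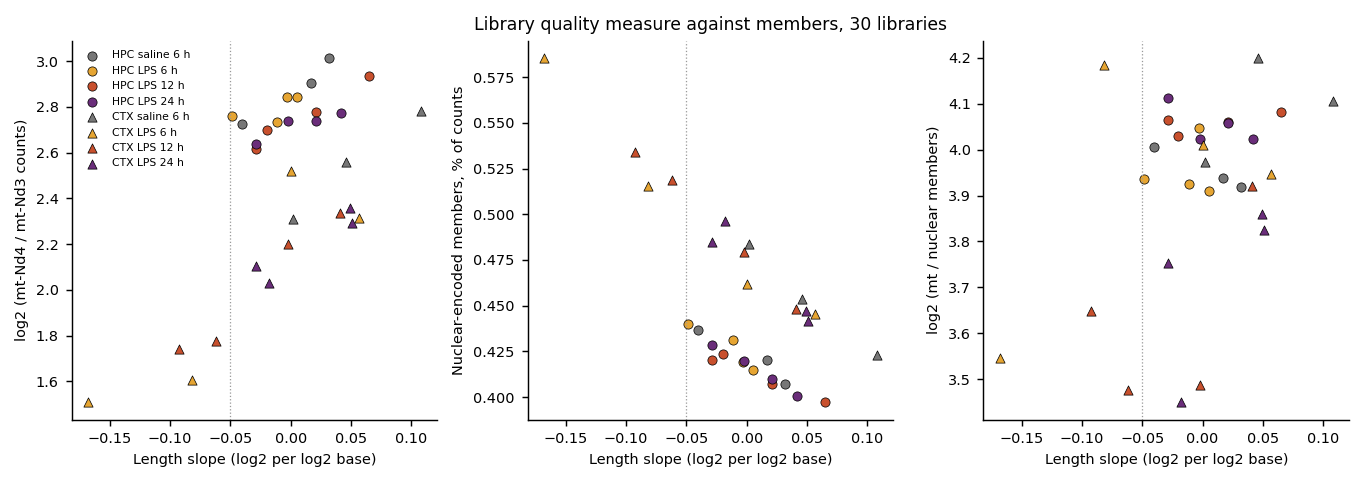
Length slope of each of the 30 libraries (horizontal axis, log2 per log2 of transcript length) against the log2 ratio of mt-Nd4 to mt-Nd3 counts (left), the nuclear members' percent of counts (middle) and the log2 ratio of mitochondrial to nuclear member counts (right). Circles are hippocampus and triangles frontal cortex, the dotted line marks a slope of -0.05, and the 4 cortical libraries to its left have the lowest mt-Nd4 to mt-Nd3 ratios and the highest nuclear percentages.

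Without those 4 libraries the mitochondrial members had frontal cortex medians of -0.45 at 12 h and -0.40 at 24 h, as low as with them. mt-Cytb alone was called at 12 h, with -0.51 ± 0.13 SE, adjusted p = 0.0406 (edgeR), from 2 libraries of LPS and 3 of saline. mt-Nd4 had -0.48 ± 0.16 SE, adjusted p = 0.161, and mt-Co1 -0.45 ± 0.12 SE, adjusted p = 0.0595, at 12 h, so both lost their call. At 24 h, where no LPS library was left out, 4 members were called, mt-Nd1, mt-Co1, mt-Co2 and mt-Cytb, of which mt-Co1 had -0.50 ± 0.10 SE, adjusted p = 0.00749. Length slopes were 0.046, 0.002 and 0.108 in cortical saline libraries and 0.049, -0.018, 0.051 and -0.029 at 24 h. These groups overlap, but leaving out the 4 libraries does not make them equal in slope. With the length slope as a covariate in the fit, the medians were -0.42 and -0.40, all 13 members stayed negative at both times, and none was called. Adding the counts of the chromosome 1 copies to their genes left 3 calls at 12 h and 2 at 24 h.

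No nuclear member of frontal cortex passed the test at 12 h or 24 h. At 12 h their median log2 fold change was 0.07 (-0.14 to 0.19) and at 24 h -0.01 (-0.24 to 0.10), with 0 of 35 called by edgeR at both times and 1 at an unadjusted p under 0.05 at each. DESeq2 called 1 at 12 h and 0 at 24 h, and limma 0 and 0. By complex the medians at 12 h were 0.05 for complex I, 0.10 for complex II, 0.08 for complex III and 0.05 for complex IV, while those of the mitochondrial subunits of complexes I and IV were -0.43 and -0.41.

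At 6 h, when 3.5% of genes were called in frontal cortex, edgeR called none of the 48 members (0 mitochondrial and 5 nuclear at an unadjusted p under 0.05), and neither did DESeq2 or limma. The nuclear members had a median of 0.14, positive in 33 of 35. Ndufb8, an accessory subunit of complex I, was at 55.2, 57.0 and 47.7 CPM in saline and at 80.5, 57.0, 75.2 and 56.8 at 6 h, in the order A240 to A243. A240 and A242 were high and the other 2 lay within the saline range, so the groups overlap, and the log2 fold change was 0.34 ± 0.12 SE, adjusted p = 0.137. Among nuclear members, those with a transcript under 1000 bases had a median of 0.18 (18 genes) and those of 1500 bases or more 0.09 (10 genes). Without the 4 libraries of low length slope the nuclear median was -0.03 at 6 h, with 23 of 35 members negative, and -0.02 at 12 h, so both signs turned. Scaling by library totals alone gave a nuclear median of 0.07 at 24 h, also with the other sign.

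Sdha, the flavoprotein of complex II that oxidises succinate, had the lowest log2 fold change of the 35 nuclear members in frontal cortex at 6 h. It was at 413, 419 and 414 CPM in saline and at 372, 382, 379 and 393 at 6 h. All 4 LPS values lay below the 3 saline values, with a log2 fold change of -0.12 ± 0.06 SE, adjusted p = 0.257, which edgeR did not call. Its partner Sdhb, the iron-sulphur subunit, had 0.13 ± 0.09 SE, adjusted p = 0.447.

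In hippocampus no member passed the test at 6 h. edgeR called 0 of 48 (0 at an unadjusted p under 0.05, and 0 by DESeq2 and by limma), where 5.11% of 17289 genes were called. The medians were -0.01 for mitochondrial members (-0.10 to 0.07) and 0.00 for nuclear members (-0.06 to 0.10).

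At 12 h and 24 h the hippocampal medians parted by small amounts, with nuclear members at -0.08 and -0.06 and mitochondrial members at 0.05 and 0.03. Of 35 nuclear members 32 were negative at 12 h and 31 at 24 h, and of 13 mitochondrial members 12 and 11 were positive. edgeR called 1 nuclear member at 12 h and 3 at 24 h, all lower (2.86% and 8.57% of the 35), where 12.3% and 13.4% of all genes were called. The share called among the members was below the background, so the counts are no result about the members as a group. Libraries did not overlap for 7 and 6 nuclear members, all lower after LPS, where 10.2% and 11.7% of tested genes were lower without overlap. No mitochondrial member was called (1 at an unadjusted p under 0.05 at each time, and 0 by DESeq2 and limma). When counts were scaled by library totals alone, the nuclear medians were -0.04 and -0.01, with 25 and 22 of 35 negative.

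Uqcrc1 (chr9:108936633-108949623, plus strand), a core subunit of complex III, fell at 12 h. It was at 251.39, 256.16 and 267.65 CPM in saline, 226.35, 230.59, 234.29 and 234.80 at 12 h and 238.22, 226.02, 257.99 and 237.00 at 24 h. All 12 h libraries were below saline, while 1 library of 24 h lay within the saline range. Its log2 fold change was -0.16 ± 0.05 SE, adjusted p = 0.0226 at 12 h (edgeR) and -0.11 ± 0.05 SE, adjusted p = 0.133 at 24 h. The call at 12 h was kept in 20 of 26 alternatives. It was lost without saline A224 or A226 or LPS A258, with scaling by library totals alone, in a fit of only the groups compared and in 1 fit of both tissues.

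Ndufa8 (chr2:36036326-36049406, minus strand) and Ndufb10 (chr17:24722060-24724478, minus strand) are accessory subunits of complex I, and both fell at 24 h. Ndufa8 was at 77.4, 77.5 and 79.4 CPM in saline and 67.7, 73.5, 67.2 and 67.0 at 24 h, a log2 fold change of -0.18 ± 0.05 SE, adjusted p = 0.00902 (edgeR). Ndufb10 was at 88.1, 92.6 and 93.6 in saline and 81.6, 80.0, 80.3 and 84.0 at 24 h, a log2 fold change of -0.17 ± 0.05 SE, adjusted p = 0.0155. In both genes all LPS libraries were below all saline libraries, at 0.882 and 0.891 times saline in the fit, and A275 lay apart as the highest Ndufa8 value of its group. The Ndufa8 call was kept in 24 of 26 alternatives and that of Ndufb10 in 21, and the latter was lost without saline A224 or A226 or LPS A275.

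Sdha fell in hippocampus at 24 h. It was at 414, 411 and 417 CPM in saline and at 376, 376, 381 and 379.7 at 24 h, without overlap and with a spread of few CPM in each group. The log2 fold change was -0.13 ± 0.04 SE, adjusted p = 0.0197 (edgeR). The call was kept in 17 of 26 alternatives and lost without any one of 6 of the 7 libraries compared (all but LPS A276). The other 3 complex II members were not called, and the median of complex II was -0.02 at 24 h. The largest nuclear subunit of complex I, Ndufs1, had -0.03 ± 0.05 SE, adjusted p = 0.776 at 12 h and -0.01 ± 0.05 SE, adjusted p = 0.903 at 24 h, and Cox4i1, the regulatory subunit of complex IV, -0.09 ± 0.05 SE, adjusted p = 0.325 and -0.04 ± 0.05 SE, adjusted p = 0.690.

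The mitochondrial members of hippocampus stayed without a call against saline, and mt-Nd3 and mt-Atp8 had the highest log2 fold changes. mt-Nd3 was at 747, 814 and 1003 CPM in saline, 999.6, 861, 946 and 1047 at 12 h and 958, 906, 1048 and 958 at 24 h. The groups overlap, and edgeR gave 0.17 ± 0.09 SE, adjusted p = 0.267 and 0.18 ± 0.09 SE, adjusted p = 0.230. mt-Nd4, which fell in frontal cortex, was at 6035, 6090.4 and 6645 CPM in hippocampal saline libraries and at 6488, 6580.2, 6482 and 6412 at 12 h, within the saline range, with 0.05 ± 0.04 SE, adjusted p = 0.504.

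Further nuclear members of complexes I, II and IV were set by name. Ndufs1 was at 119.98, 126.55 and 129.89 CPM in hippocampal saline libraries and at 122.60, 123.30, 130.93 and 120.48 at 24 h, and Ndufa4 at 160.4, 165 and 180.5 and 165, 159, 180.3 and 176. Both genes overlapped between the groups, and Ndufa4 had 0.01 ± 0.06 SE, adjusted p = 0.912. Sdhb was at 99.3, 102 and 111 in saline and 101, 95.6, 109 and 99.5 at 24 h, with -0.04 ± 0.05 SE, adjusted p = 0.682. Cox4i1 was at 289, 302 and 329.9 and 295, 284, 313 and 303, and Cox5a at 50.6, 53.3 and 52.0 and 46.2, 45.4, 46.3 and 49.2. None of these 5 genes was called against saline in either tissue, and Cox5a had -0.15 ± 0.05 SE, adjusted p = 0.0520 at 24 h.

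**Figure D5:**
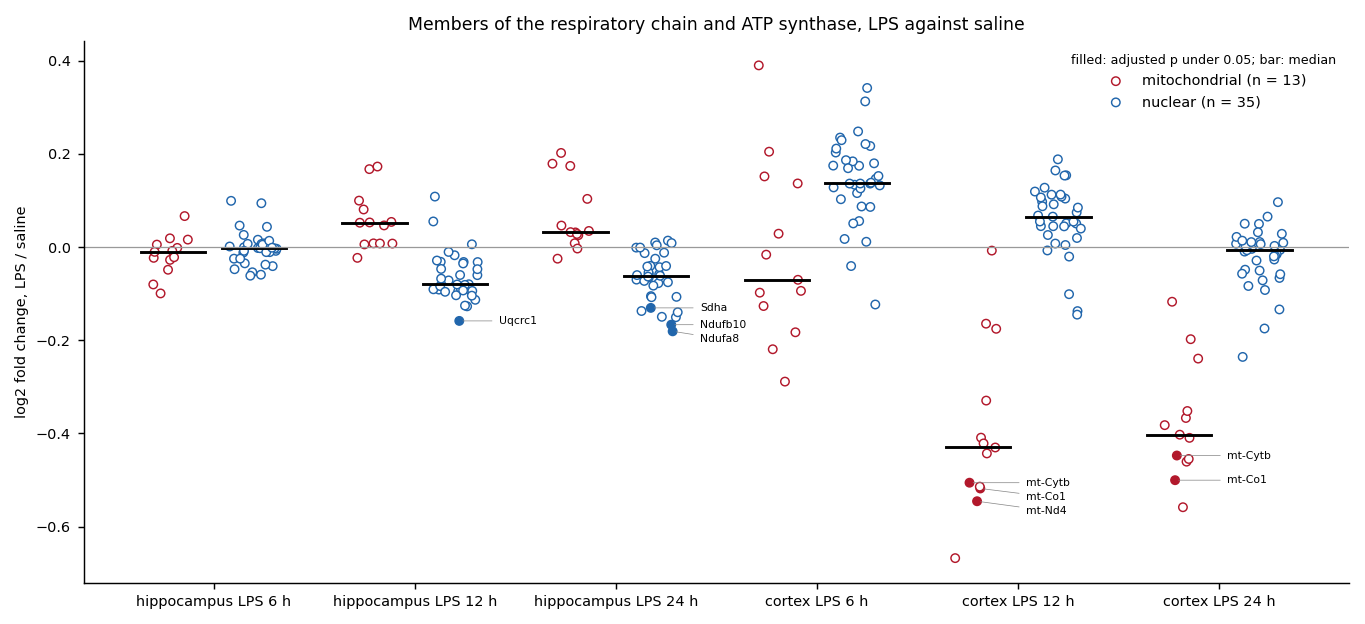
Log2 fold change against saline (vertical axis) of the 13 mitochondrial and 35 nuclear members at 6, 12 and 24 h after LPS in hippocampus and frontal cortex, with 1 point per gene, filled where edgeR's adjusted p was below 0.05, and a bar at the median. Mitochondrial medians in frontal cortex are at -0.43 and -0.40 at 12 h and 24 h, and all hippocampal medians lie within 0.10 of 0.

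Against LPS 6 h, which is matched for LPS but not for time, the later hippocampal groups gave 1 call at 12 h and 4 at 24 h. mt-Atp8, a short membrane subunit of ATP synthase whose gene shares 43 bases with mt-Atp6, was at 249, 317, 269 and 306 CPM at 6 h, 363, 318, 352 and 339.7 at 12 h and 341, 325, 389.6 and 350.3 at 24 h, and at 305, 293 and 319 in saline. Both later groups lay above all 6 h libraries, and it rose by 0.27 ± 0.07 SE, adjusted p = 0.0483 at 12 h and by 0.30 ± 0.07 SE, adjusted p = 0.00810 at 24 h (edgeR, log2). It was the only member called at 12 h against 6 h, where 2.14% of genes were called, and that call was lost without any one of 10 libraries. At 24 h against 6 h (9.49% of genes called) the nuclear members Cox5a, Ndufa8 and Ndufb10 also fell, by 0.15 ± 0.05, 0.20 ± 0.04 and 0.21 ± 0.04 SE on the log2 scale (adjusted p = 0.0473, 0.00462 and 0.00257). Cox5a encodes a subunit of complex IV. Its call was kept in 9 of 26 alternatives and lost without any one of 13 libraries, while those of Ndufa8, Ndufb10 and mt-Atp8 at 24 h against 6 h were each kept in 25 of 26. The libraries of 24 h are the same in this and in the saline comparison.

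In frontal cortex no member was called by edgeR at 12 h or 24 h against LPS 6 h, where 1.23% and 1.83% of genes were called. Of the 13 mitochondrial members 10 had an unadjusted p under 0.05 at each time, with medians of -0.37 and -0.38, and all 13 were negative at both. Of 35 nuclear members, 1 and 12 had an unadjusted p under 0.05. DESeq2 called 3 mitochondrial members at each time and limma 0. Without the 4 libraries of low length slope these medians were -0.27 and -0.25.

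Whether the response differed between tissues was tested gene by gene as an interaction over all 30 libraries. No member passed at 6, 12 or 24 h in edgeR, and the same held for almost all genes, with 0%, 0.0963% and 0.125% of 17650 called. At 12 h 10 of 13 mitochondrial members and 2 of 35 nuclear members had an unadjusted p under 0.05, with median hippocampal minus cortical responses of 0.51 and -0.13 on the log2 scale. At 24 h the counts were 10 and 1 and the medians 0.44 and -0.06, while at 6 h they were 0 and 1. mt-Nd4 had the smallest adjusted p at 12 h (0.152, edgeR) and mt-Co1 at 24 h (0.301). DESeq2 called 1 member at 12 h and 0 at 24 h, and limma with quality weights 4 and 3.

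Promoters of nuclear members are known to bind NRF1, ETS factors such as GABPA, and YY1, known as shared regulators of nuclear subunits. RefSeq promoter windows of GRCm38.p6, from 250 bases before to 50 after a start site, were matched to 26 of the 35 nuclear members and searched on both strands. The NRF1 core GCGCATGCG was in 3 of 26 (11.5%, against 1.95% of 27025 genes), the ETS core CCGGAAG in 6 (23.1% against 9.93%) and the YY1 core AAGATGGCG in 3 (11.5% against 1.64%). Of the 4 nuclear members that fell in hippocampus against saline, Uqcrc1 and Ndufa8 hold the NRF1 core and Ndufb10 and Sdha hold none of the 3 in their windows. Cox6a1 holds the NRF1 core too and was not called there. A link between the core and the falls was not tested. The windows of Uqcrc1 (chr9:108936398-108936697, plus strand) and Ndufa8 (chr2:36049289-36049588, minus strand) are shown because these called members hold the NRF1 core, which is in capitals. In Uqcrc1 it is read on both strands at overlapping positions. A match describes the letters of the window and is not a measured site.
Uqcrc1: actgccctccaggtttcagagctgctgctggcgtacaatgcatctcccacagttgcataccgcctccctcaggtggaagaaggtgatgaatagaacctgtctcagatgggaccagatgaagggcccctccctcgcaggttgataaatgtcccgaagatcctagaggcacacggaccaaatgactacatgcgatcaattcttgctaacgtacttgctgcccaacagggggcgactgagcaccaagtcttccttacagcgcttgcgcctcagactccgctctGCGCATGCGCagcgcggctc
Ndufa8: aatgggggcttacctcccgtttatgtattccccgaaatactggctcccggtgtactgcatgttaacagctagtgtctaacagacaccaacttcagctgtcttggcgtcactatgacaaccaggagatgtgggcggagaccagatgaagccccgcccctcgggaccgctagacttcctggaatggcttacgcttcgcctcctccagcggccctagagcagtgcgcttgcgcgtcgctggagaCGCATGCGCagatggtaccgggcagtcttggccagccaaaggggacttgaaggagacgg

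Among the regulators of respiratory genes, Gabpa, the DNA-binding part of GABP, rose in hippocampus at 12 h (0.28 ± 0.06 SE, adjusted p = 0.00191, edgeR) and 24 h (0.22 ± 0.06 SE, adjusted p = 0.0158). Ppargc1a, a coactivator that raises expression of respiratory genes, fell in frontal cortex at 12 h (-0.47 ± 0.09 SE, adjusted p = 0.00242) and 24 h (-0.39 ± 0.09 SE, adjusted p = 0.0114), and in hippocampus had 0.01 ± 0.08 SE and 0.02 ± 0.08 SE, not called. Tfam, which packs and transcribes mitochondrial DNA, and Lrpprc, which stabilises mitochondrial messengers, were not called at any time in either tissue. Their frontal cortex values at 12 h were 0.04 ± 0.07 SE, adjusted p = 0.796 and -0.11 ± 0.09 SE, adjusted p = 0.550.

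Other genes of the pathway were taken from lists made by name, and their counts stand beside the 12.3% and 13.4% of all genes called in hippocampus at 12 h and 24 h. Of 27 other subunits of complexes I, III and IV, 0 were called at 12 h and 3 fell at 24 h in hippocampus (Ndufb2, Ndufa12 and Cyc1), and edgeR called none in frontal cortex. Of 15 nuclear ATP synthase subunits 1 fell at each of these times in hippocampus, Atp5o at 24 h with -0.16 ± 0.05 SE, adjusted p = 0.0196. Of 41 assembly factors 2 fell at 24 h (Cox14 and Acad9), and of 77 mitochondrial ribosomal proteins 2 fell at 12 h, and 5 fell and 1 rose at 24 h. Each of these shares is below that of all genes. The mitochondrial rRNAs mt-Rnr1 and mt-Rnr2, which poly(A) selection samples in part, had 0.37 ± 0.16 SE and 0.39 ± 0.18 SE in frontal cortex at 6 h, not called. At 6 h in frontal cortex the nuclear lists shared the positive median of the members, 0.21 for the other subunits, 0.17 for ATP synthase and 0.23 for cytosolic ribosomal proteins, 77 of 77 positive. Summed CPM of cytosolic ribosomal proteins was 18646 and 20046 in A240 and A242, which have a low length slope. It was 13723 and 14635 in A241 and A243, within saline (12990 to 15304). The other subunits and the share of the rRNAs split in the same way. The part of the length slope in these medians was not tested.

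Enzymes that feed the chain were taken from 2 further lists, with 12.3% and 13.4% of all genes called in hippocampus at 12 h and 24 h. Of 16 genes of the tricarboxylic acid cycle 4 fell at 12 h, and 3 fell and 1 rose at 24 h, among them Dlat (-0.19 ± 0.05 SE, adjusted p = 0.00970 at 12 h), the acetyltransferase of pyruvate dehydrogenase. Of 17 glycolytic genes 1 rose and 3 fell at 12 h, and 1 rose and 7 fell at 24 h. Hk2, which phosphorylates glucose, rose (0.61 ± 0.11 SE, adjusted p = 4.36e-04 at 24 h), and Aldoc, the brain aldolase, fell (-0.60 ± 0.05 SE, adjusted p = 3.27e-09). Ucp2, an inner membrane carrier linked to proton leak and oxidative stress, fell in both tissues at all 3 times, with -1.12 ± 0.19 SE, adjusted p = 0.00161 in hippocampus and -0.68 ± 0.18 SE, adjusted p = 0.0290 in frontal cortex at 12 h. Pdk2, a kinase that restrains pyruvate dehydrogenase, fell in hippocampus at 12 h (-0.23 ± 0.05 SE, adjusted p = 0.00350) and at 24 h (-0.32 ± 0.05 SE, adjusted p = 8.85e-05). Acod1, which makes the complex II inhibitor itaconate, had 0 to 12 counts per library and was not analysed further.

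Markers of cell types moved beside these changes. Of all genes tested, 12.3% and 13.4% were called in hippocampus at 12 h and 24 h, and 7.13% and 6.11% in frontal cortex. Of 8 microglial markers 8 rose at 24 h in hippocampus (median 0.88) and 3 and 4 rose at 12 h and 24 h in frontal cortex. In frontal cortex none of 9 neuronal markers was called at 12 h (median -0.14) or 24 h (median -0.12), and their summed level was 8292 to 9483 CPM in saline, 7849 to 8659 at 12 h and 7948 to 8751 at 24 h. Striatal markers summed to 167 to 875 CPM in cortical saline libraries and 277 to 443 at 12 h, with all 8 detected and none called. Choroid plexus markers ranged from 47.8 to 2466 CPM among hippocampal libraries and from 14.4 to 1061 among cortical ones. In hippocampus LPS 12 h library A261 (2466) and saline library A222 (1310) were the highest. In frontal cortex saline library A224 (1061) was the highest, and it was also the highest there in striatal markers (875). Meninges markers summed to 100.2 to 117 CPM in cortical saline libraries, 71.8 to 119 at 6 h, 64.0 to 84.9 at 12 h and 73.8 to 92.2 at 24 h, with no overlap with saline at the later 2 times. Of those 6 markers 1 fell and 0 rose at 12 h and at 24 h (medians 0.07 and 0.18). Astrocyte markers summed to 2534 to 2704 CPM in hippocampal saline libraries, 2846 to 3407 at 12 h and 2827 to 2948 at 24 h, again without overlap, and of 7 markers 2 rose and 1 fell at each of these times (medians 0.01 and 0.02). The part of these cell types in the changes of the members was not tested.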

How the data were processed

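Total RNA from 30 tissue samples was made into stranded poly(A) libraries and read as paired 150 bp reads, per the labels' protocols. The submitters' processing notes name STAR 2.6.0a, DESeq2, FastQC and Trim Galore 0.4.1. The gene counter, its strand setting, the annotation release and the treatment of reads with several matches were not given in the sources used here. The deposited file holds raw counts per Ensembl gene, 48820 in all, of which 48144 matched a symbol in GENCODE M21 (GRCm38). No column was left unused (0).

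Members and gene lists were chosen with earlier results of these data known. Counts were summed, and genes were kept by edgeR's filter (a minimum count of 10 in a group and 15 in total) and scaled by TMM. CPM of single genes used library totals multiplied by the TMM factors of their own tissue. Summed CPM of gene lists, median log2 CPM and the length slope used library totals alone. A quasi-likelihood model was fitted (edgeR 4.0.16, limma 3.58.1, DESeq2 1.42.0, R 4.3.3) over all groups of a tissue (17289 genes in hippocampus, 17111 in frontal cortex) or of both (17650). Tests were two-sided, and p-values were adjusted by Benjamini and Hochberg over all genes of a comparison, with calls at 0.05. The labels do not say that the libraries come from separate extractions, so p-values measure the spread between these samples. Totals of 16826882 to 33034295 counts set the precision. The length slope used nuclear protein-coding genes with a mean above 5 CPM on log2(CPM + 0.5). The hippocampal fit was run on counts simulated at the library totals of hippocampus. The frontal cortex fits and the fits of both tissues were not tested in this way.

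Named with values per library were, for each tissue and genome, up to 4 members called against saline by size of change (or the 2 with the smallest p) and 11 set members, and from the other lists up to 3 called genes by size. mt-Nd4l and mt-Nd5 were named after their values were seen. Alternatives were another scaling (DESeq2 size factors, library totals alone, library sizes without mitochondrial genes), no filter and a stricter one, DESeq2, limma-voom with quality weights, fits of the compared groups alone or of both tissues, a mouse block, leaving out each library and, chosen after seeing the data, leaving out libraries of low length slope, the length slope as a covariate and the addition of copies. The mouse pairs samples across tissues, since 14 mice gave both: the correlation of their deviations had a median of 0.119 over 12228 genes (-0.105 to 0.349, above 0.1 in 7 of 14).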

Additional observations from a re-analysis of the deposited data

Results flagged for a closer look

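Among 138 sets of 4 libraries (a value in an LPS group), 4 had a highest or lowest library far from the other 3. That is fewer than the about 1 in 20 that chance gives. Ndufa8 in hippocampus at 24 h was at 73.5 CPM in A275, above 67.0 to 67.7 in the others. The mitochondrial rRNAs made up 0.900% of counts in the hippocampal library A276 at 24 h, below 1.002% to 1.018%. In frontal cortex at 24 h, A275 was low for mt-Nd6, at 667 CPM against 859 to 866, and for mt-Cytb, at 4569.9 CPM against 5547 to 5739.7. Mouse A275 thus holds 3 of the 4, from its hippocampal and its frontal cortex library. With so few flags this is no result about that mouse.

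The log2 ratio of mitochondrial to nuclear member counts moved in opposite directions in the tissues. At 12 h the mean was 0.10 above saline in hippocampus and -0.46 from saline in frontal cortex, and at 24 h it was 0.10 and -0.37. In each case every LPS library was on that side of every saline library of its tissue. As given above, that depends on how the ratio is formed. With all nuclear genes in place of the nuclear members, hippocampal libraries overlapped saline at 12 h and 24 h. With median log2 CPM, 24 h overlapped saline in both tissues. The difference between the tissues was not tested for these sums. The interaction test of single genes is given above, and called none of the 48 members.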

How the results depend on the processing

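Counts of called members are by edgeR unless another tool is named. With no filter, mitochondrial calls were 1 and 3 in hippocampus at 12 h and 24 h, 2 at 24 h against 6 h, and 0 and 0 in frontal cortex at 12 h and 24 h. With the length slope as covariate, hippocampus had 1 mitochondrial and 2 nuclear calls at 12 h, 1 and 5 at 24 h, and 3 mitochondrial calls against 6 h at 12 h and at 24 h; frontal cortex had 0 mitochondrial calls at 12 h, 0 mitochondrial and 3 nuclear at 24 h, and saline tissues differed in 28 members. Library totals alone gave 0 nuclear calls at 12 h and 0 nuclear and 1 mitochondrial at 24 h in hippocampus, and 6 between tissues. Fits of only the groups compared gave 0 nuclear calls in hippocampus at 12 h, 1 mitochondrial at 24 h and 0 at 12 h against 6 h, and in frontal cortex 5 mitochondrial calls at 12 h, 9 mitochondrial and 1 nuclear at 24 h, and 1 mitochondrial at 24 h against 6 h. In 1 fit of both tissues hippocampus lost all its calls (0 nuclear at 12 h and 24 h, 0 of both genomes against 6 h), and frontal cortex had 1 nuclear call at 6 h, 10 mitochondrial and 1 nuclear at 12 h, 8 mitochondrial at 24 h, and 5, 7 and 2 (nuclear, 24 h) against 6 h. limma with quality weights called 6 nuclear members at 24 h against saline and 6 against 6 h in hippocampus, 10 and 7 mitochondrial members in frontal cortex, 4 and 3 in the interaction, and 19 between tissues. DESeq2 called 8 mitochondrial and 1 nuclear at 12 h, 5 at 24 h, 3 and 3 against 6 h in frontal cortex, 1 in the interaction at 12 h and 7 between tissues. Without the libraries of low length slope there were 1 and 4 mitochondrial calls at 12 h and 24 h and 1 nuclear at 24 h in frontal cortex, 1 in the interaction at 24 h and 19 between tissues. Between tissues DESeq2 size factors gave 4, library sizes without mitochondrial genes 8 and the stricter filter 4. With the replicate block the paired comparison between tissues had 0 calls with the mouse as a fixed effect and 2 as a random effect, and the interactions 0. The causes were not tested. None of the 16 called values of the members changed sign; small values near 0 did, as mt-Nd3 at 12 h in frontal cortex.

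Leaving out each library gave, in hippocampus, 0 to 1 mitochondrial and 0 to 1 nuclear calls at 12 h, 0 to 1 and 1 to 4 at 24 h, 0 to 1 mitochondrial at 12 h against 6 h, and 1 to 1 and 2 to 4 at 24 h against 6 h. In frontal cortex it gave 0 to 7 mitochondrial calls at 12 h, 0 to 6 at 24 h and 0 to 1 at 24 h against 6 h. The interaction at 12 h had 0 to 1 and saline tissues 0 to 9, with 0 to 0 in all other comparisons. The difference of the log2 ratio ranged from -0.03 to 0.03, 0.09 to 0.13 and 0.08 to 0.13 in hippocampus at 6, 12 and 24 h, and from -0.26 to -0.05, -0.56 to -0.41 and -0.43 to -0.28 in frontal cortex. In hippocampus the nuclear call at 12 h was lost without saline A224 or A226 or LPS A258, and 1 of 3 at 24 h remained without saline A224 or A226 or LPS A275. Depth kept no member out of a test, and 3 saline libraries per tissue limit the precision.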

Other observations

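Of 4 mitochondrial tRNAs tested in hippocampus, 1 rose at 12 h and 2 rose at 24 h by edgeR, where 12.3% and 13.4% of all genes were called, and poly(A) libraries sample such short RNAs poorly. The log2 ratio of mitochondrial rRNA to mitochondrial member counts was -2.69, -2.55 and -2.81 in the 3 frontal cortex saline libraries, -2.21, -2.49, -2.47 and -2.21 at 12 h and -2.51, -2.19, -2.44 and -2.30 at 24 h. All cortical libraries of 12 h lay above saline, as did those of 24 h. The cortical libraries of 6 h, when edgeR called no member, also all lay above saline, with A243 close to the highest saline library. The shift in this ratio is thus not particular to the later times. The log2 ratio of mt-Nd4 to mt-Nd3 counts, both from complex I, was 3.01, 2.90 and 2.73 in hippocampal saline libraries and 2.74, 2.77, 2.64 and 2.74 at 24 h, which overlap.

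A glycolytic enzyme responded differently in the tissues. Pfkl, the liver type of phosphofructokinase, rose in frontal cortex at 12 h (0.31 ± 0.06 SE, adjusted p = 0.00182, edgeR, log2) and at 24 h (0.28 ± 0.06 SE, adjusted p = 0.00476). The hippocampal minus cortical response of Pfkl was -0.39 ± 0.07 SE, adjusted p = 0.0263 at 12 h, a called difference, and -0.32 ± 0.07 SE, adjusted p = 0.0675 at 24 h, which was not called. Eno1, an enolase, rose in frontal cortex at 24 h (0.23 ± 0.06 SE, adjusted p = 0.0264), with a tissue difference of -0.31 ± 0.07 SE, adjusted p = 0.0540. In hippocampus the partners of succinyl-CoA ligase moved apart at 24 h: Suclg2, part of the form that makes GTP, rose (0.33 ± 0.08 SE, adjusted p = 0.00793) and Suclg1, the shared subunit, fell (-0.16 ± 0.05 SE, adjusted p = 0.0288). These genes were chosen after their values were seen.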
